A study of Mus musculus with 9 samples.

Results

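Mybpc3 and Mybpc2, 2 of the 15779 genes measured in this series, encode the cardiac and the fast skeletal form of myosin-binding protein C. They were picked by name after results of the same libraries were known: Mybpc3 because it carries the mutation under study, and Mybpc2 because its level differed between the groups. Their own values are therefore given as a description with no test. Polyadenylated RNA from adult C57BL/6J mouse hearts was sequenced in 9 libraries, in 3 groups of 3. The first group was wild type and received saline. The second was homozygous for a premature stop in Mybpc3 (Mybpc3R946X/R946X) and received saline. The third had the same homozygous genotype and received the treatment labelled high-dose-exABE8e. The series describes the mutant as a mouse model of hypertrophic cardiomyopathy, and describes adenine base editors carried into cardiomyocytes by adeno-associated virus of serotype 9. An adenine base editor converts A to G at a guided site without cutting both strands. The labels do not spell out exABE8e, and they name saline, not an empty virus, for both control groups. Sex, age in days and dose are not in the labels, and whether each library is 1 animal is not stated, so the p-values below measure the spread between these libraries.

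Myosin-binding protein C lies in the C-zone of the sarcomere, where it holds on to the thick filament through its C-terminal domains and reaches myosin heads and actin through its N-terminal domains. Phosphorylation of the cardiac form by protein kinase A and other kinases loosens its hold on myosin heads. Vertebrates have a cardiac gene (Mybpc3), a fast skeletal gene (Mybpc2) and a slow skeletal gene (Mybpc1), and the healthy heart is known for using almost only the cardiac one. Truncating variants of the human cardiac gene are a leading inherited cause of hypertrophic cardiomyopathy.

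Each library summed to between 999152 and 999382 on the deposited scale, where every library is brought to nearly the same total, so sequencing depth is unknown. Xist, the RNA of the inactive X chromosome, was listed at 119 in wild-type replicate 1, at 351 in saline-mutant replicate 3 and at 39 in treated replicate 1, and at 0 in the other 6 libraries. Ddx3y, a Y-linked gene, was at 0 in the first 2 of these and at 38 in treated replicate 1, which thus held both transcripts. In the other 6 libraries Ddx3y lay between 70 and 97. Several results, but not all, are also given without these 3 libraries. Cardiomyocyte markers summed to between 48066 and 58437 in every library, so the tissue carried the markers of its label.

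The mutated codon and its counterpart in the fast skeletal gene are shown because the whole comparison rests on that position. On GRCm38 (mm10), Mybpc3 (ENSMUSG00000002100.15) occupies chromosome 2 from 91118144 to 91136516 on the plus strand. The codon that the mutation R946X names, counted in the transcript ENSMUST00000111430.9 with its 35 exons and 1277 codons, reads CGA (arginine) and lies in exon 27 at 91132942 to 91132944. In another annotated transcript, ENSMUST00000169776.1, the coding sequence is 1 codon longer (1278 codons) and the codon of that number reads TTC, so the numbering in the mutation's name fits the first. A single-base change turns CGA into the stop codon TGA. From there 332 codons would be lost, with 74.0% of the codons before it, and 8 exon junctions follow, the last of them 1023 nt downstream of the codon. Mybpc2 (ENSMUSG00000038670.11) occupies chromosome 7 from 44501699 to 44524656 on the minus strand. When the coding sequences of both genes were aligned, 2150 of 3374 bases placed opposite each other were identical (63.7%), and codon 805 of Mybpc2, CGG in exon 21 of 28, lay opposite the mutated codon. The windows of 63 coding bases around both codons follow, with the codon in capitals. The Mybpc3 window spans chr2:91132912-91132974 on the plus strand and the Mybpc2 window chr7:44507081-44507143 on the minus strand, both in GRCm38.
Mybpc3 mutated codon: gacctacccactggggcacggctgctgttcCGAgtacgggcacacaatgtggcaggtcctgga
Mybpc2 opposite codon: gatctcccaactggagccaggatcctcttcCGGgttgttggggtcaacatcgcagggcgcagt
The windows share 37 of 63 bases, and both are the wild-type reference sequence, since no read or edited allele was used here.

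The promoters are shown because both genes differed between the groups in opposite directions. These are the 250 bases before the annotated start of each gene in RefSeq (GRCm38.p6), at chr2:91117894-91118143 on the plus strand for Mybpc3 and chr7:44524670-44524919 on the minus strand for Mybpc2. Capitals mark matches to the E-box (CANNTG) and to the MEF2 motif.
Mybpc3 promoter: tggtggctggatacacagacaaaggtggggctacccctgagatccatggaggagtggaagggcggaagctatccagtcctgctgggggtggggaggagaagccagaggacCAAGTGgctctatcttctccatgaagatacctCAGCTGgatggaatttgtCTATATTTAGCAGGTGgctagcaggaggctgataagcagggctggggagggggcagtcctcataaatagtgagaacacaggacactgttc
Mybpc2 promoter: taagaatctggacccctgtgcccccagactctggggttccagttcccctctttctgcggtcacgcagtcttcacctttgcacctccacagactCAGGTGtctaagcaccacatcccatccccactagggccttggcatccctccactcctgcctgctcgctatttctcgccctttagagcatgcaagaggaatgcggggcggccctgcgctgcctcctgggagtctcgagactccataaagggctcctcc
Both strands were searched in 32851 windows of this length. The Mybpc3 window held 3 E-boxes, at 140, 108 and 80 bases before the start, and the Mybpc2 window held 1, at 157; 66.2% of all windows held at least 1. A MEF2 match, present in 2.92% of windows, lay at 90 in Mybpc3, directly against the E-box at 80, and none was in the Mybpc2 window. GATAAG, in 6.55% of windows, matched once in Mybpc3, at 60, and not in Mybpc2. TATAAA (12.4% of windows) and the CArG box (1.47%) matched neither window. GC content was 54.4% in Mybpc3 and 59.6% in Mybpc2, against a median of 52.4%. A match is a run of letters and not a measured binding site.

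Mybpc3 was among the most abundant transcripts of the wild-type heart and lost most of its level in the saline mutants. Its deposited values were 1510, 1795 and 2039 in replicates 1, 2 and 3 of the wild type, which ranked it 47th, 33rd and 31st among all genes. In saline mutants they read 133, 142 and 186, at ranks 1038, 1020 and 746. Treated mutants had 1024, 1374 and 1332, at ranks 86, 53 and 57. The 3 groups did not overlap, and every treated library lay between the saline groups. As background, groups did not overlap in 21.6% of genes between saline mutants and wild type, in 9.82% between treated and saline mutants and in 14.6% between treated mutants and wild type. Both genes were chosen for these values, so nothing is read from their place among those shares. The group means were 1781 ± 265 (SD, n = 3), 154 ± 28.4 and 1243 ± 191, so the wild-type mean was 11.6 times and the treated mean 8.09 times the saline-mutant mean. In bulk heart RNA, fewer cells that express a gene and less RNA in each such cell cannot be told apart.

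On a scale of deposited values, 0 was set at the saline-mutant mean and 1 at the wild-type mean. The treated libraries stood at 0.535, 0.75 and 0.724 on it for Mybpc3 (0.669 ± 0.117). The lowest was replicate 1, the library that held both Xist and Ddx3y. Without it, the treated mean on the same scale was 0.737 ± 0.0182 (n = 2). Without the Xist library of each group, the means were 1917, 138 and 1353 (n = 2 each). The difference between saline mutants and wild type, on the log2(value + 1) scale used for all log2 differences, was -3.53 with all libraries and -3.79 without those 3. For treated against saline mutants it was 3.01 and 3.29. Treated mutants were 0.52 below wild type (-0.52; -0.50 without the 3 libraries), and the alternatives ran from -0.63 to -0.39. The authors' deposited table gave log2 fold changes of -3.62, 3.06 and -0.54 for the same comparisons, and the authors' deposited table of selected genes for treated mutants against wild type, with 317 genes, did not include Mybpc3.

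Mybpc2 showed the reverse order, from a low start. Wild-type libraries had 23, 26 and 32 (27.0 ± 4.58), saline mutants 167, 165 and 156 (163 ± 5.86), and treated mutants 84, 100 and 100 (94.7 ± 9.24). The groups again did not overlap. Saline mutants averaged 6.02 times and treated mutants 3.51 times the wild-type mean, and the treated mean was 58.2% of the saline-mutant mean. By rank among all genes, Mybpc2 stood between 4478 and 5563 in wild type, between 805 and 938 in saline mutants and between 1494 and 1764 in treated mutants. With all libraries, the saline mutants were the tightest group for this gene, with a coefficient of variation of 3.60%, against 18.5% for Mybpc3. Without the Xist library, saline mutants were at 166 ± 1.41 for Mybpc2 and 138 ± 6.36 for Mybpc3 (n = 2). The treated libraries without Xist were both at 100 for Mybpc2, so the saline mutants were then not the tightest group.

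Log2 differences of Mybpc2 were 2.56 for saline mutants against wild type, -0.78 for treated against saline mutants and 1.78 for treated mutants against wild type. They ranged from 2.45 to 2.68, from -0.82 to -0.70 and from 1.68 to 1.91 over 11 alternatives. The authors' deposited table gave 2.52, -0.75 and 1.79, and Mybpc2 was in the authors' deposited selection of 689, 137 and 317 genes for these comparisons.

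The treated libraries stood at 0.58, 0.462 and 0.462 between saline mutant and wild type for Mybpc2 (0.501 ± 0.0681), closer to the middle than the 0.669 of Mybpc3. Without replicate 1, the treated mean was 0.462 for Mybpc2 and 0.737 for Mybpc3. These positions use deposited values and depend on that scale. On log2(value + 1), treated Mybpc2 was 0.78 below saline mutants and 1.78 above wild type, so nearer the saline mutants. Treated Mybpc3 was 3.01 above saline mutants and 0.52 below wild type. The treated library with the lowest Mybpc3, replicate 1, also had the lowest Mybpc2, so on these scales it was the least like wild type for one gene and the most like it for the other. In the saline mutants, replicate 3 had the highest Mybpc3 (186) and the lowest Mybpc2 (156). The wild-type libraries kept the same order for both genes.

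**Figure D1:**
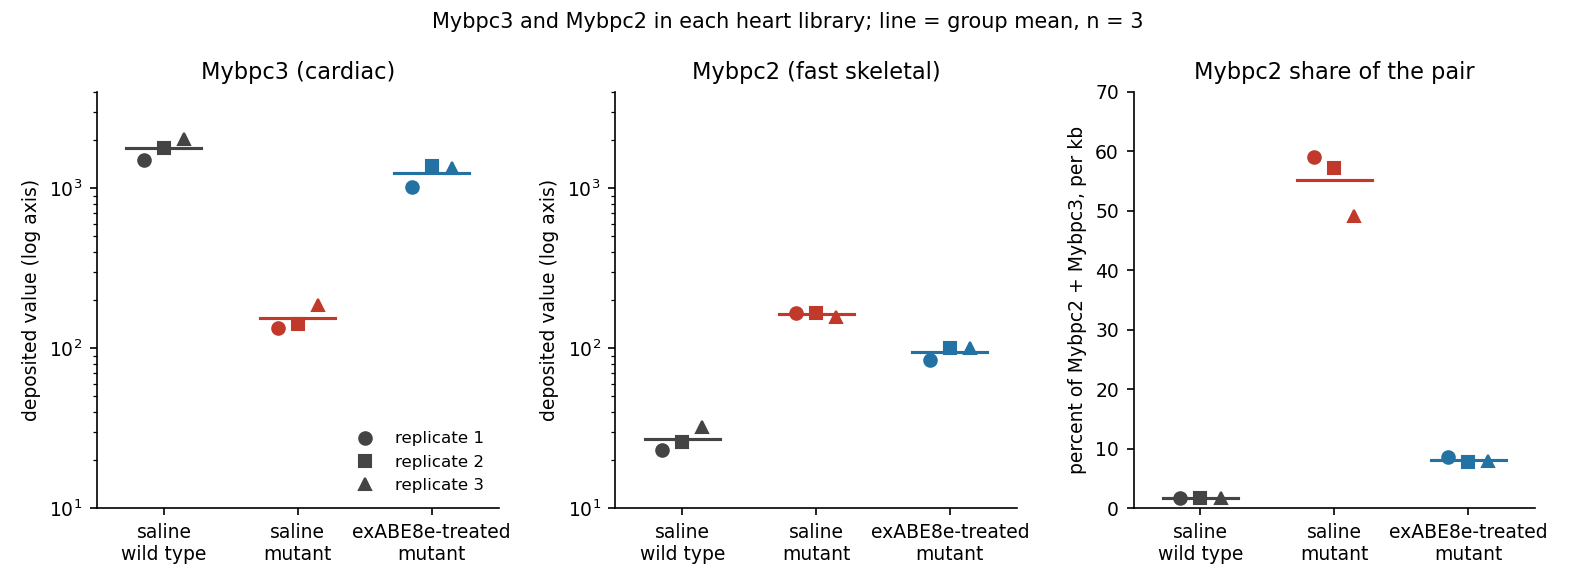
Deposited values of Mybpc3 (left) and Mybpc2 (middle) in each library on log axes, and the percent of the summed per-kilobase level of both genes that is Mybpc2 (right), by group; points are libraries, marked by replicate, and lines are group means (n = 3). Mybpc3 is lowest and Mybpc2 highest in the saline mutants, and the treated libraries lie between the saline groups in each panel.

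The genes can be compared with each other only per length of transcript, and the deposited values are not known to be scaled for length. Over all genes, value and transcript length were only weakly related (Spearman's rho 0.0998), which does not settle it, so ratios are given with and without division by length. Divided by 4154 nt for Mybpc3 and 3611 nt for Mybpc2, the wild-type levels were 429 ± 63.7 and 7.48 ± 1.27 per kilobase. The Mybpc3 level was thus 57.1, 60.0 and 55.4 times the Mybpc2 level in the wild-type libraries. This ratio of levels varied less between wild-type libraries (coefficient of variation 4.07%) than Mybpc3 (14.9%) or Mybpc2 (17.0%) alone, and both genes were lowest in replicate 1 and highest in replicate 3.

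In the saline mutants the ratio was 0.692, 0.748 and 1.04, with Mybpc2 above Mybpc3 per kilobase in replicates 1 and 2 and not in replicate 3. Undivided, the ratio was 0.796, 0.861 and 1.19 in saline mutants, 65.7, 69.0 and 63.7 in wild type and 12.2, 13.7 and 13.3 in treated mutants, and these values apply if the deposited scale already corrects for length. Mybpc2 was 55.1% ± 5.31 of the pair per kilobase in these hearts, against 1.71% ± 0.0678 in wild type. Treated mutants had ratios of 10.6, 11.9 and 11.6, with Mybpc2 at 8.62%, 7.73% and 7.95% of the pair. Without the Xist library of each group, the Mybpc2 share was 1.71%, 58.1% and 7.84% in wild type, saline mutants and treated mutants.

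In absolute terms the paralog's difference was small beside that of the mutated gene. On the deposited scale, the mean of saline mutants minus that of wild type was -1628 for Mybpc3 and 136 for Mybpc2, and the second is 8.34% of the size of the first. For treated minus saline mutants the differences were 1090 for Mybpc3 and -68 for Mybpc2. The summed value of both genes was 17.5% ± 1.24 of the wild-type mean in saline mutants and 74.0% ± 11.1 in treated mutants, with treated libraries at 61.3%, 81.5% and 79.2%.

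With all treated libraries included, the spread of Mybpc3 between them was smaller after division by Myh6 or Ttn. Myh6, the main myosin heavy chain of the adult mouse ventricle, was also low in wild-type replicate 1 (14823, against 20732 and 23109) and in treated replicate 1 (15229, against 22506 and 21627). Divided by Myh6, Mybpc3 in the treated libraries was 72.9%, 66.2% and 66.8% of the wild-type mean (68.6% ± 3.72), a coefficient of variation of 5.42% in place of 15.4%. Divided by Ttn, which encodes titin, the giant spring of the sarcomere, the treated libraries were at 56.0%, 54.7% and 58.3%. Replicate 1 did not stand below both other treated libraries on either scale. In each group, the library with the lowest Myh6 was the one with Xist. Without that library, treated mutants averaged 76.0% ± 1.67 (n = 2) as deposited, 66.5% ± 0.413 over Myh6 and 56.5% ± 2.56 over Ttn. The treated spread was then smaller over Myh6 and not over Ttn. With all libraries, the saline mutants went the other way. Their Myh6 was 23965, 21458 and 16937, lowest in the replicate with the highest Mybpc3. The coefficient of variation of their Mybpc3 was 37.3% over Myh6 and 32.1% over Ttn, against 18.5% as deposited. Without replicate 3, their Mybpc3 was 7.72% ± 0.357 of the wild-type mean as deposited, 6.6% ± 0.819 over Myh6 and 5.87% ± 0.319 over Ttn.

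With all libraries, division by thin-filament genes did not narrow the treated group. Divided by Tnnt2, cardiac troponin T, the treated libraries were at 61.5%, 84.5% and 86.5%, and divided by Actc1, cardiac actin, at 40.9%, 71.7% and 65.6%, with replicate 1 lowest on both. Without replicate 1, which held both Xist and Ddx3y, they averaged 85.5% ± 1.37 over Tnnt2 and 68.6% ± 4.34 over Actc1. As deposited, the same libraries averaged 76.0% ± 1.67. With all libraries, the group mean in treated mutants ranged from 56.3% for the ratio to Ttn to 77.5% for the ratio to Tnnt2, and lay below wild type on all 4 scales. Mybpc2 stayed above wild type on each scale as well. Its saline-mutant mean was from 4.78 (Actc1) to 7.58 times (Tnnt2) the wild-type mean, and its treated mean from 2.85 (Ttn) to 3.89 times (Tnnt2). Tnnt2 and Actc1 themselves differed between the saline groups without overlap. Tnnt2 was at 4933, 4755 and 5258 in wild type and at 4250, 3964 and 3708 in saline mutants. Actc1 was at 10692, 10722 and 9667 in wild type and at 13680, 12664 and 12481 in saline mutants. The ratios carry these differences.

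**Figure D2:**
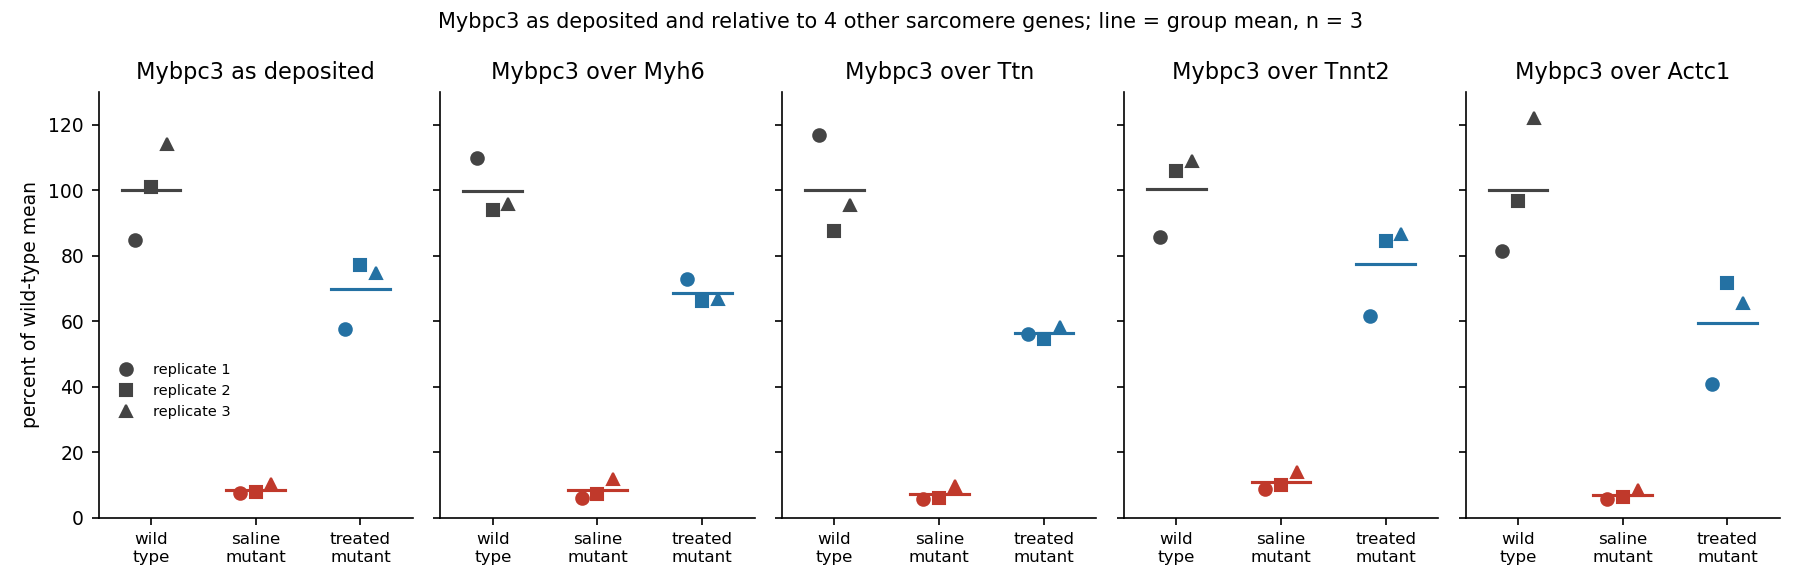
Mybpc3 in each library as percent of the wild-type mean, as deposited and after division by Myh6, Ttn, Tnnt2 or Actc1; points are libraries, marked by replicate, and lines are group means (n = 3). In the treated mutants, replicate 1 lies below the others as deposited and over Tnnt2 and Actc1, and not over Myh6 or Ttn.

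Among the other genes of the family, Mybpc1, the slow skeletal form, was listed at 0 in 8 libraries and at 1 in treated replicate 2. Mybph and Mybphl, which encode the shorter myosin-binding protein H and its atrial relative, had no row in the tables used here. Defining genes of skeletal muscle were at or near 0: of 13 such markers without the creatine kinase Ckm, which the heart also expresses, 5 had a row, and none was above 2 in any library. These were Mylpf, Tnni2, Tnnt3, Myh4 and Atp2a1, and their summed value was 1 to 3 in wild type, 1 to 3 in saline mutants and 5 to 6 in treated mutants. Tnnc2 and Actn3 had no row. Mybpc2 thus stood at 156 to 167 in saline mutants in which these 5 fast-fibre genes were at or near 0. Fibroblast markers, in contrast, summed to 1200 to 1586 in wild type, 1935 to 2983 in saline mutants and 1452 to 1848 in treated mutants, with all 6 markers in the tables. The 5 erythroid markers, all in the tables, summed to 104 to 313, 69 to 85 and 140 to 158 in the same order. The part of these cells in the values of either gene was not tested.

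A list of 17 genes that work beside Mybpc2 in fast skeletal muscle was read from a limma fit across all genes. Between saline mutants and wild type that fit called 1050 of 13632 genes (7.70%) at an adjusted p under 0.05, with 4.56% of genes higher and 3.14% lower in the mutants. Of the 5 list genes tested, 2 rose and 2 fell, and the list's median log2 difference was 0.72 against 0.07 over all genes. That median is the value of Mylpf, at 0 to 2 in every library and not called (limma adjusted p = 0.266), and it ran from 0 with no filter to 2.48 with a filter at a mean of 10. Casq1, the calcium-storage protein of the sarcoplasmic reticulum in fast fibres, was at 10, 13 and 13 in wild type and at 97, 64 and 58 in saline mutants. Neb encodes nebulin, which runs along the thin filament of skeletal muscle, and went from 2, 5 and 4 to 32, 24 and 28. Neither gene overlapped between these groups, and their log2 differences were 2.48 (SE 0.199, limma adjusted p = 0.00026) and 2.68 (SE 0.252, limma adjusted p = 0.000597). Both were called in all 17 alternatives.

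The pair that fell was Myl1, a fast skeletal myosin light chain, and Cacna1s, the skeletal L-type calcium channel. Myl1 was at 31, 30 and 31 in wild type and 12, 15 and 20 in saline mutants, a log2 difference of -0.95 (limma adjusted p = 0.0117). It was not called with limma's own variance step, nor without wild-type replicate 1 or saline-mutant replicate 2. Cacna1s went from 8, 8 and 6 to 4, 3 and 2 (-1.08, limma adjusted p = 0.0211). It lost its call with limma's own variance step, without wild-type replicate 1 or 2, without saline-mutant replicate 2 and without the Xist libraries. Called genes of the list thus went both with Mybpc2 and against it in the main fit. With limma's own variance step, only those that went with it were called.

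Between treated and saline mutants the limma fit called 2 of 13636 genes (0.0147%), 1 in each direction (0.00733%), 1130 genes had an unadjusted p under 0.05, and no fast skeletal gene was called. The list's median of -0.19, against -0.03 over all genes, is again that of Mylpf and ran from -0.42 to 0.67, so its sign depends on the filter. Neb was at 16, 16 and 14 in the treated libraries, all below the saline mutants (-0.82, limma adjusted p = 0.158). Casq1 was at 68, 40 and 54 and overlapped with the saline mutants (-0.42, limma adjusted p = 0.684). Between treated mutants and wild type 134 of 13554 genes (0.989%) were called, 0.863% of genes higher and 0.125% lower. The share of calls that were higher was 87.3%, and 72.5% under upper-quartile scaling. Among the called genes were Casq1 (2.06, limma adjusted p = 0.0169) and Neb (1.86, limma adjusted p = 0.0281), 2 of 6 list genes tested. Both calls were lost, and the list count was 0, whichever 1 wild-type replicate was left out and also without the Xist libraries. Neb was not called without treated replicate 1 or 2 either.

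Myosin-binding protein C attaches to the thick filament, and of 13 thick-filament and M-band genes tested 4 rose and 1 fell in saline mutants, with a median of 0.29. Of all genes, 4.56% were called higher and 3.14% lower there, with a median of 0.07. Myh7, the slow or beta myosin heavy chain, was at 84, 66 and 100 in wild type, at 1024, 759 and 1364 in saline mutants and, after treatment, at 223, 307 and 51. The rise in saline mutants was 3.62 (SE 0.22, limma adjusted p = 0.000113). Every treated library was below every saline mutant, but they spread from 51 to 307 among themselves, and the difference of -2.74 was not called (limma adjusted p = 0.214).

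Myom3, which encodes an M-band protein, rose from 4, 4 and 3 to 10, 10 and 11 (1.29, limma adjusted p = 0.00194). Myh7b, a slow myosin related to Myh7, rose from a mean of 26.7 to 50.3 (0.89, limma adjusted p = 0.00653). Myl4, the atrial light chain, had values of 3, 3 and 5 in saline mutants, against 1 throughout the wild type (1.19, limma adjusted p = 0.0125). This call was lost when wild-type replicate 1, saline-mutant replicate 3 or the Xist libraries were left out. The gene that fell was Mylk3, the cardiac kinase of the myosin regulatory light chain, from 628, 714 and 740 to 366, 384 and 358 (-0.91, limma adjusted p = 0.0012). No thick-filament gene was called between treated and saline mutants (median -0.08) or between treated mutants and wild type (median 0.30, against 0.01 over all genes). Of all genes, 0.0147% and 0.989% were called in these comparisons. Without treated replicate 3, 3 were called in the last comparison.

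Of 12 thin-filament genes, which include the actin that myosin-binding protein C touches with its N-terminus, 3 rose in saline mutants and none fell (median 0.14). Of all genes, 4.56% were called higher and 3.14% lower (median 0.07). The split of the thin-filament genes depends on the settings. The count of lower calls was 3 with a filter at a mean of 10 and in a joint fit of the 3 groups, 2 with a variance floor taken from all genes, and 1 under both other scalings and with a pseudocount of 0.5. The genes behind these lower calls, named after their values were seen, were Tnni3, Tpm1 and Tnnt1, each lower in saline mutants without overlap. Tnni3, cardiac troponin I, was at 3469, 2836 and 3130 in wild type and 2436, 2210 and 2026 in saline mutants (-0.50, limma adjusted p = 0.0505). Tpm1, alpha-tropomyosin, was at 9019, 9568 and 8707 and at 6753, 6588 and 6457 (-0.46, limma adjusted p = 0.0638). Tnnt1, slow skeletal troponin T, had a log2 difference of -0.57 (limma adjusted p = 0.0569). Acta1, skeletal actin, was at 266, 437 and 597 in wild type and 4810, 4989 and 4824 in saline mutants (3.56, SE 0.249, limma adjusted p = 0.000178). In treated mutants Acta1 was at 971, 1087 and 841, and had fallen by 2.34 against saline mutants (SE 0.127, limma adjusted p = 0.000254). Acta1 was the 1 gene of all these lists called in that comparison, in all 17 alternatives too. Against wild type, the treated value of Acta1 was 1.22 higher without overlap and was not called (limma adjusted p = 0.112).

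Tpm2, beta-tropomyosin, differed from Acta1. It rose from 19, 21 and 16 in wild type to 83, 125 and 89 in saline mutants (2.33, limma adjusted p = 0.000207), and was at 180, 91 and 64 in treated mutants. The treated libraries overlapped with the saline mutants (0.06, limma adjusted p = 1) and exceeded wild type (2.39, limma adjusted p = 0.029). That last call was lost without wild-type replicate 1, 2 or 3, without treated replicate 2 and without the Xist libraries. Tnni1, slow skeletal troponin I, had values of 2, 2 and 4 in saline mutants and of 0, 1 and 1 after treatment, and all wild-type libraries listed it at 0. It passed the filter on low values only through the saline mutants, so its call (limma adjusted p = 0.0038) and its place among the 3 genes carry little weight. With no filter, 3 thin-filament genes were again called higher in saline mutants. Tnni1 was not tested without saline-mutant replicate 3, and was not called without the Xist libraries.

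Another list held 19 genes for kinases and phosphatases known to act on cardiac myosin-binding protein C and for regulators of these enzymes. Of all genes, 7.7% were called in saline mutants, 0.0147% between treated and saline mutants and 0.989% between treated mutants and wild type. Of the list, 1 gene was called in saline mutants (median 0.04) and none in either comparison with treated mutants (median 0.00 in both). That gene was Prkca, protein kinase C alpha, at 29, 39 and 41 in wild type and 59, 60 and 58 in saline mutants (0.70, SE 0.14, limma adjusted p = 0.0182). The groups did not overlap, as for 21.6% of all genes. The call was lost with limma's own variance step and without saline-mutant replicate 2 or 3. In treated mutants Prkca was at 50, 43 and 58.

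**Figure D3:**
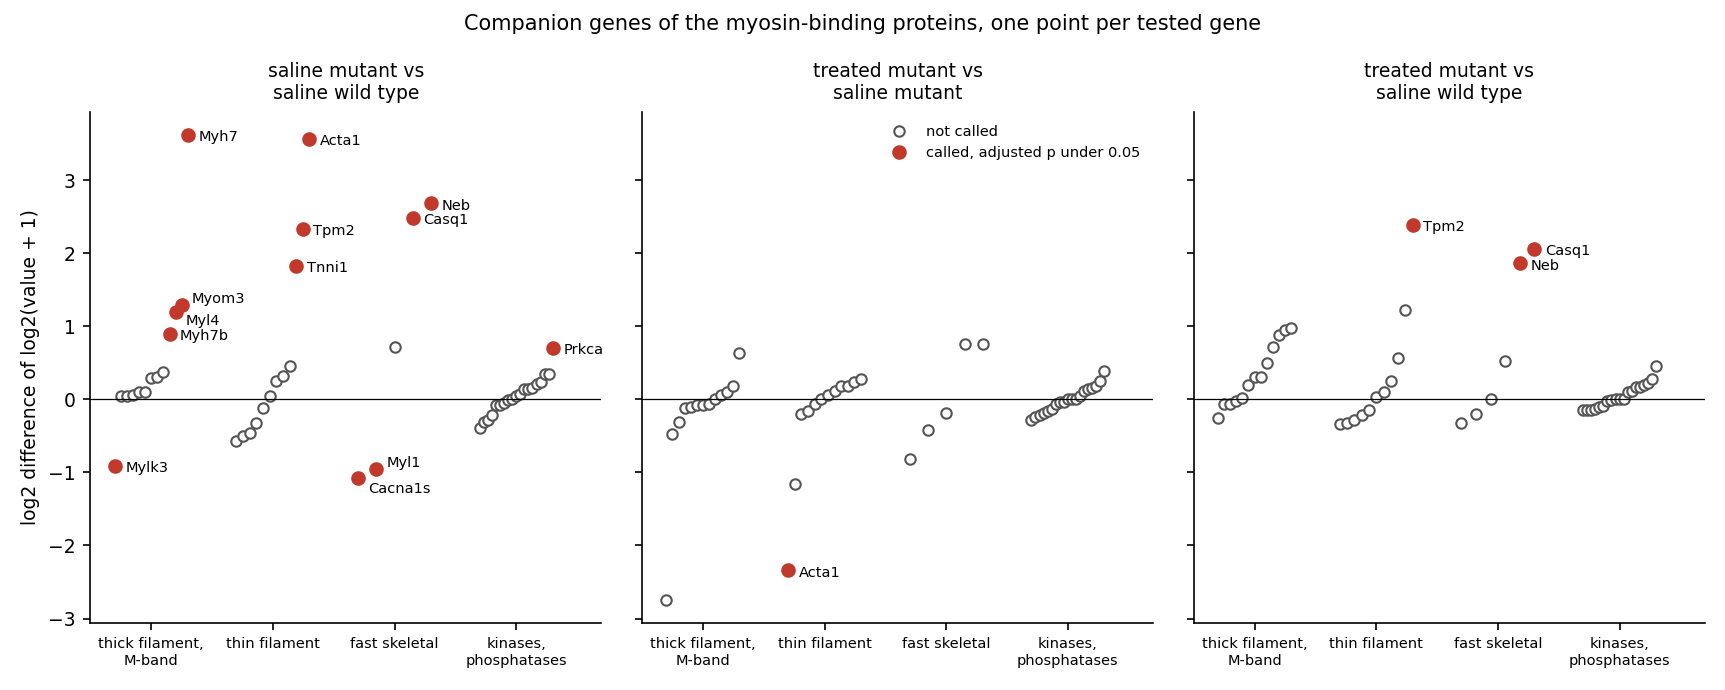
Log2 differences of log2(value + 1) for each tested gene of 4 lists of companions of myosin-binding protein C, in the 3 comparisons; filled red points were called by limma at an adjusted p under 0.05. Saline mutants against wild type hold 13 called genes, treated against saline mutants hold Acta1 alone, and treated mutants against wild type hold Tpm2, Casq1 and Neb.

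The genes around Mybpc3 and Mybpc2 were read from the same fits, over 200 kb on either side. Around Mybpc3, 14 of 19 annotated genes had a row and 13 were tested between saline mutants and wild type, with a median log2 difference of 0.07. In that comparison 7.7% of all genes were called, and the median over all genes was also 0.07. The neighbours on either side, Spi1 (2388 bp away) and Madd (844 bp away), were not called. Spi1 was at 8, 7 and 6 in wild type and 5, 10 and 13 in saline mutants, and Madd at 11, 12 and 13 and at 9, 9 and 11. Pacsin3, 119438 bp away, was the 1 gene called, at 111, 119 and 105 in wild type and 147, 155 and 152 in saline mutants (0.44, limma adjusted p = 0.0243). It was called in 8 of 17 alternatives, and lost its call under both other scalings, without wild-type replicate 1 or 3, without each saline mutant in turn and without the Xist libraries. Under both other scalings 1 gene near Mybpc3 was still called, but a lower one, Rapsn, 72415 bp away and named after its values were seen. Rapsn was at 13, 12 and 12 in wild type and 9, 8 and 8 in saline mutants (-0.52, limma adjusted p = 0.0514), and was called in 6 of 17 alternatives. No gene around Mybpc3 was called in either comparison with treated mutants. Of all genes, 0.0147% were called against saline mutants and 0.989% against wild type.

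Around Mybpc2, 11 of 28 annotated genes had a row. Fam71e1, 213 bp away, was at 1 in every library, and Pold1, 8090 bp away, ranged from 8 to 11 in wild type, from 7 to 9 in saline mutants and from 8 to 11 in treated mutants. Spib, which lies nearer than Pold1 on that side, and Gm44646, which overlaps Mybpc2 on the other strand, had no row. Whether the counting used strand is not stated, so reads of Gm44646 and Mybpc2 may not have been told apart. Of 10 neighbours tested in saline mutants, 1 fell and none rose, where 3.14% of all genes were called lower and 4.56% higher. Lrrc4b, 38348 bp away, was at 10, 14 and 11 in wild type, at 2, 1 and 1 in saline mutants and, after treatment, at 4, 6 and 5. The groups did not overlap, and the order was the reverse of that of Mybpc2. Its log2 difference was -2.46 in saline mutants (SE 0.221, limma adjusted p = 0.000494), and this call held in all 16 alternatives that tested it. Against wild type, treated mutants were 1.08 lower (-1.08, limma adjusted p = 0.0487), a call that held in 6 of 16 alternatives and was lost whichever 1 library was left out. Against saline mutants, they were 1.38 higher and not called (limma adjusted p = 0.158).

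**Figure D4:**
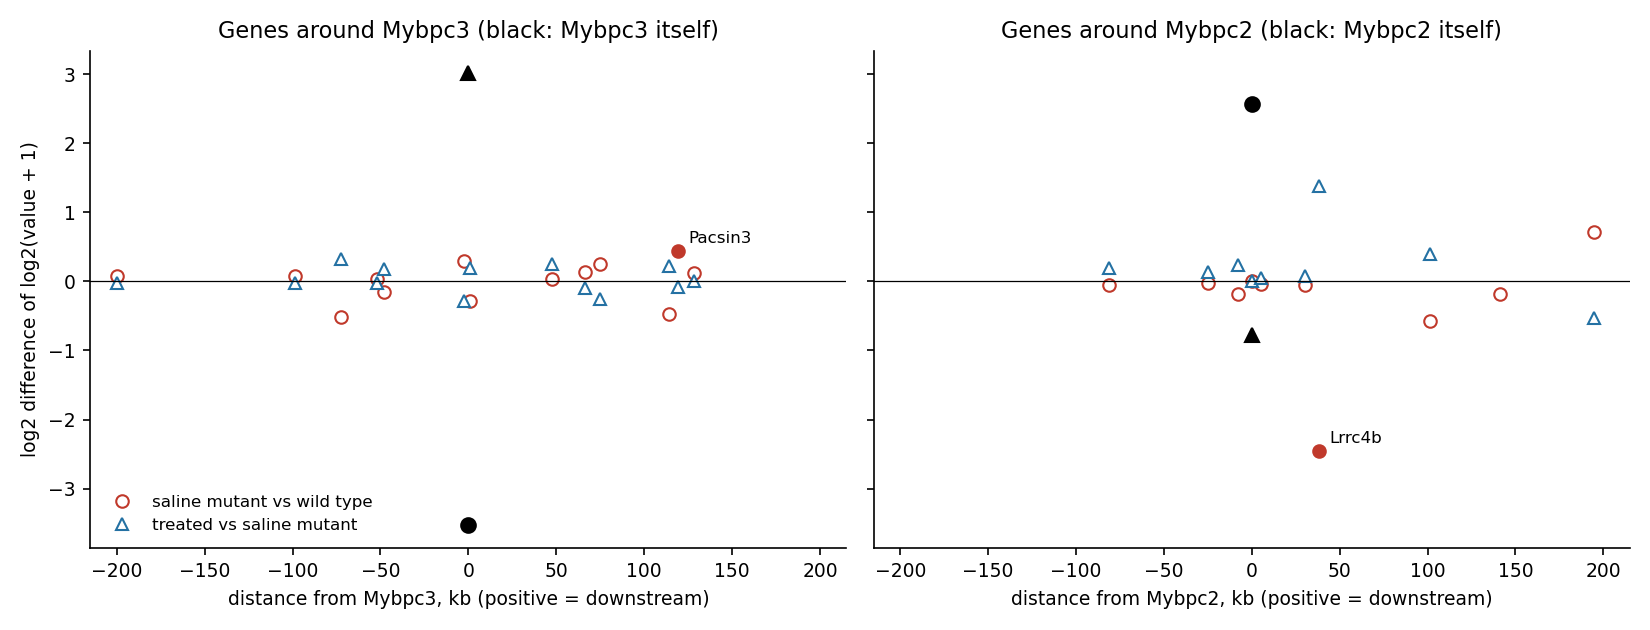
Log2 differences of log2(value + 1) for tested genes within 200 kb of Mybpc3 (left) and Mybpc2 (right) against their distance in kilobases, for saline mutants against wild type (circles) and treated against saline mutants (triangles); filled coloured points were called by limma, and black points are Mybpc3 and Mybpc2. Pacsin3 and Lrrc4b are the called neighbours in saline mutants.

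To show which genes followed the same course over the 9 libraries, Pearson's r with each of the pair was computed on log2(value + 1) for 8785 other genes with a mean of at least 10. The libraries form 3 groups that differ for both genes, so r mainly reflects the order of the groups and is given without a p. Scn4b (0.961), Dglucy (0.957), Klhdc1 (0.955), Dlgap4 (0.955) and Parm1 (0.951) were most like Mybpc3. Scn4b, a subunit of the cardiac sodium channel, was at 24, 21 and 25 in wild type and at 4, 3 and 2 in saline mutants. Its treated values of 12, 18 and 13 lay between. The other 4 covered a smaller range than Mybpc3, such as 51.7 ± 2.52, 29.3 ± 1.53 and 42.7 ± 3.06 for Dglucy, and Dlgap4 was no lower in treated mutants (66.7 ± 4.51) than in wild type (66.3 ± 0.577). Within groups, r with Mybpc3 lay between -0.193 for Scn4b and 0.583 for Klhdc1.

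Scube2 (0.990), Aqp8 (0.985), Dok7 (0.981), Etf1 (0.981) and Qsox1 (0.980) were most like Mybpc2. Aqp8, a water channel, had the widest range of these 5, at 2, 1 and 3 in wild type and at 78, 75 and 62 in saline mutants, with treated values of 33, 22 and 38. Scube2 was at 15, 19 and 18, then 42, 41 and 39, then 30, 34 and 35. Etf1, a translation release factor, followed the same order over a narrow range, with means of 145 ± 4.93, 176 ± 1.53 and 168 ± 2.08. Between Mybpc3 and Mybpc2 themselves r was -0.799 over all libraries, and 0.609 for the deviations from the group means. The second value pools the 3 groups: in the saline mutants the libraries stood in the reverse order for the 2 genes.

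**Figure D5:**
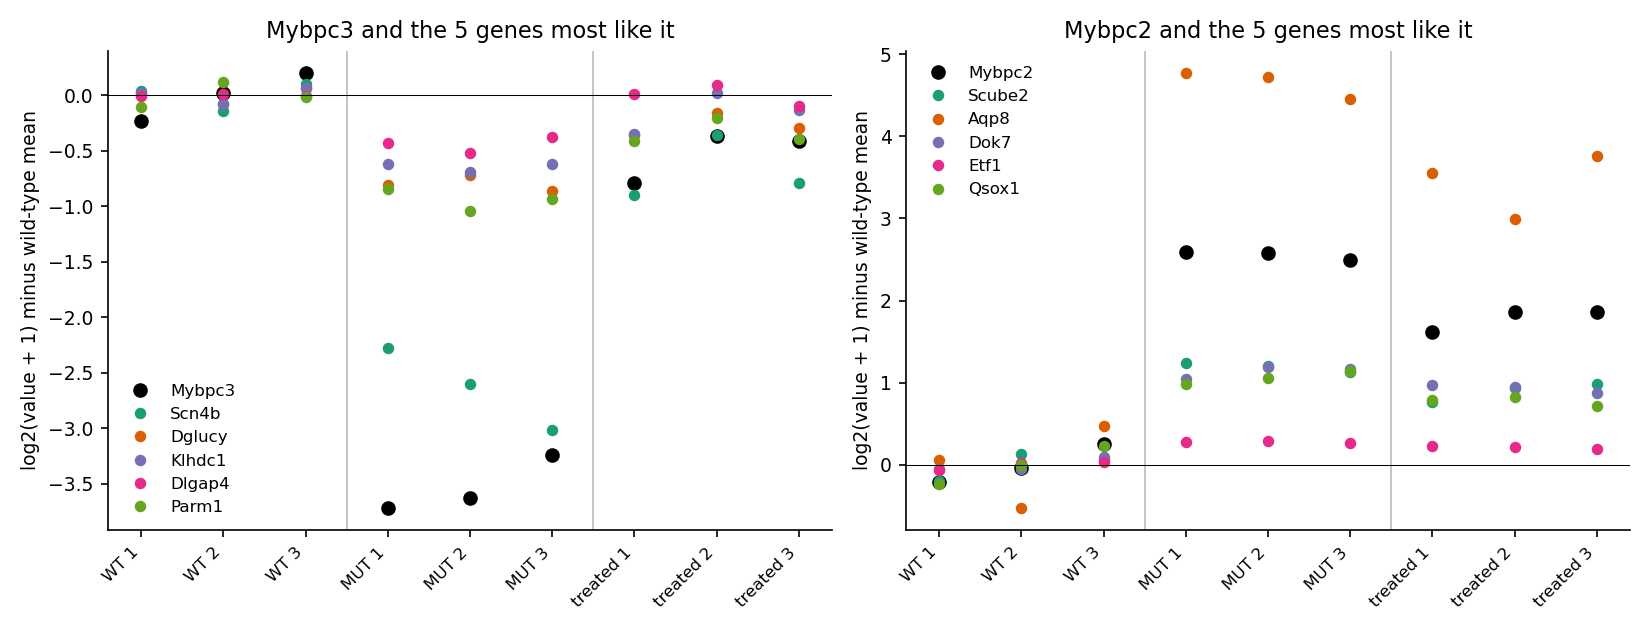
Log2(value + 1) minus the wild-type mean in each library for Mybpc3 and the 5 genes most like it (left) and Mybpc2 and the 5 genes most like it (right); points are libraries and grey lines part the groups. The saline mutants lie apart from wild type for each gene shown, Scn4b comes nearest to the range of Mybpc3, and Aqp8 exceeds that of Mybpc2.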

How the data were processed

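The authors deposited 1 table per pair of groups, with a whole-number value per gene and library. The deposited unit is not named and the values are treated as a score, whole numbers that sum to nearly the same total in each library, rounded by the authors. HISAT2, HTSeq, DESeq2 and the build mm10 are named in the submitters' processing notes, without role or version. The deposited log2 fold changes are the authors' own. Whether values are scaled for length is not given in the sources used here. Median values were 18.9 in the shortest 10% of transcripts and 31.9 in the longest 10% (12200 genes), a weak relation that does not settle the question. Levels of both genes were set side by side divided by transcript length, and also undivided.

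Each pair of groups was fitted with limma 3.58.1 (R 4.3.3) on log2(value + 1), for genes with a mean of at least 1 over 6 libraries. Residual variances were not allowed below the rounding variance, and prior degrees of freedom came from genes with a mean of at least 30. P-values were Benjamini-Hochberg adjusted over all genes tested. The fit was run on simulated libraries with independent normal noise and a set change in some of the more abundant genes. No simulated library was an outlier, so that run does not cover the dependence on single libraries given below. Gene models were from the GRCm38 annotation. Comparisons share groups, so they are not independent. The members, lists, variance step and rules were chosen with earlier results of these data known. Named were the 2 members, their family, called list genes (at most 6 per list and comparison), fast-fibre markers, called or flanking neighbours, and the 5 genes most like each member. Alternatives covered pseudocount, filter, scaling, variance step, joint fit, replicate block and left-out libraries.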

Additional observations from a re-analysis of the deposited data

How the results depend on the processing

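Mybpc3 and Mybpc2 kept the direction of all 6 differences in 11 alternatives, and of 66 values 64 moved by less than the spread between libraries. The other 2 were those of Mybpc3 without the libraries with Xist, -3.79 for saline mutants against wild type and 3.29 for treated against saline mutants. Counts of called genes moved more, by over 1.5 times in 26 of 51 values over all genes and 54 of 306 list values, and the cause was not tested. Leaving out 1 library gave 506 to 1029 genes in saline mutants against wild type, 2 to 8 in treated against saline mutants and 1 to 133 in treated mutants against wild type (1 without wild-type replicate 1). Without the libraries with Xist the counts were 556, 2 and 9. In treated against saline mutants, a filter at a mean of 10 gave 6 genes, median-of-ratios and upper-quartile scaling 10 each, limma's own variance step 32, a variance floor with prior degrees of freedom from all genes 14 and a joint fit 13. In treated mutants against wild type, no filter gave 86, limma's own variance step 77 (50.6% of them higher), the floor with all genes 243 and the joint fit 239.

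In saline mutants against wild type, limma's own variance step called 2 fast skeletal genes, both higher, and 0 kinases and phosphatases. It also called 2 genes near Mybpc3 (1 higher, 1 lower) and 3 near Mybpc2. A filter at a mean of 10 called 3 thick-filament genes, 5 thin-filament genes (2 higher, 3 lower), 2 near Mybpc3 and 0 near Mybpc2. The floor with all genes called 5 thin-filament genes (3 higher, 2 lower) and 2 near Mybpc3, and the joint fit 6 (3 higher, 3 lower) and 2, where each pair near Mybpc3 was again 1 higher and 1 lower. Without the libraries with Xist, 0 genes near Mybpc3 were called. With 1 library left out, the ranges were 2 to 4 fast skeletal genes, 0 to 1 kinases and phosphatases, and 0 to 1 genes near Mybpc3.

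In treated mutants against wild type, fast skeletal calls were 1 with the filter at 10 and with limma's own variance step, 0 without the libraries with Xist and 0 to 2 with 1 library left out. Thick-filament calls were 2 with the floor from all genes and in the joint fit, and 0 to 3 with 1 library left out. Thin-filament calls were 2 with the same pair of settings, 0 with limma's own variance step and without the libraries with Xist, and 0 to 1 with 1 library left out. Genes near Mybpc2 had 0 calls with no filter, with the filter at 10, with limma's own variance step, without the libraries with Xist and without any 1 library.

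The labels give the groups the same replicate numbers but no shared litter or batch, and deviations of same-numbered libraries correlated between -0.37 and -0.104, between -0.07 and 0.197 and between 0.027 and 0.566 in the 3 comparisons, so the numbers were not taken as pairs. Of 6 libraries in each comparison, 0, 4 and 2 correlated best with their own number. A replicate block called 819, 30 and 35 genes in the 3 comparisons, 0 genes near Mybpc3 in saline mutants, and 1 fast skeletal gene and 0 genes near Mybpc2 in treated mutants against wild type. It moved no other list count by over 1.5 times.

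Depth is unknown, so counting error cannot be given, and values of a few units, such as those of Lrrc4b, Tnni1 or Myl4, are limited by rounding to whole numbers. With 3 libraries per group, the SDs rest on few values. The values are RNA levels only, and neither protein nor editing at the codon was analysed here.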
